A study of Mus musculus with 12 samples.

Results

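Liver tumors of mice labelled as lacking both E2f7 and E2f8 (DKO, knockout of both genes) were set against livers of wild-type mice. The comparison uses 8 of the 12 mouse libraries of the series, namely the 4 libraries titled as DKO tumors and the 4 livers with the genotype label wt. The remaining 4 libraries, livers of the DKO mice, entered only to estimate the spread that the groups share, and their animal codes are those of the tumors of the same number, so that each DKO liver and tumor pair comes from 1 animal. Each library is polyadenylated RNA from 1 tissue piece, and the animal codes of the deposited names differ between all 8 libraries compared here. How the genes were deleted, any Cre driver, and the strain, sex and age of the mice are not given in the sources used here. Because no wild-type tumor was sequenced, genotype and tumor tissue change together in this comparison and cannot be told apart. The labels do not say whether libraries were prepared separately, so p-values measure the spread between these samples.

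E2F transcription factors switch on the genes of DNA synthesis and cell division. E2F7 and E2F8 are the atypical members of the family, which bind DNA without a DP partner and repress many of the same genes. In the liver both are best known for the programme that makes hepatocytes polyploid. Hepatocytes divide rarely in the adult, and hepatocyte tumors commonly combine renewed cell division with a loss of specialised metabolic functions.

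Levels are given as RPKM, which divides reads by exon length in kilobases and by the depth of the library in M (mega) reads, and are listed below in the order of replicates 1 to 4. Depth ranged from 7.985 to 15.956 M reads over the series, so that a 2 kb transcript gained 0.0313 to 0.0626 RPKM with each read. The deposited names carry a tag, L02 for wild-type livers 1 and 2 and L03 for wild-type livers 3 and 4 and the 4 tumors. The meaning of the tag is not stated, so differences were also taken against the 2 wild-type livers with the tumors' own tag, here called the L03 difference. It is printed for every gene named below as called in both fits, and for some other genes and most lists. Called genes not named among those were not called within L03. Genes were tested with limma on log2(RPKM + 1), and a gene was called at a Benjamini-Hochberg adjusted p under 0.05. A log2 difference is tumor minus wild type on that scale, which understates the change of genes with low values.

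The hepatocyte markers were high in every library. Alb, encoding serum albumin, had 52458, 44652, 33085 and 53881 RPKM in wild-type livers and 109387, 94717, 62060.3 and 57617 RPKM in tumors. All 4 tumors were above the 4 livers, although Alb did not pass the test (log2 difference 0.79, SE 0.44, limma adjusted p = 0.354). None of Alb, Ttr, Apoa1, Trf and Serpina1a was called by limma.

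Markers of other cells differed among the tumors. Tumor 3 was above all 4 wild-type livers for 14 of 17 stellate cell and fibroblast markers, 19 of 23 endothelial markers and 24 of 31 interferon response genes, against 37.7% of all genes tested. Tumors 1, 2 and 4 were below all livers for 9, 9 and 10 of the 17 stellate cell and fibroblast markers, for 13, 12 and 12 of 24 Kupffer cell and macrophage markers and for 9, 6 and 10 of 16 lymphocyte markers, against 53.9%, 32.6% and 20.2% of all genes. Over the 4 tumors 19 of 24 Kupffer cell and 15 of 16 lymphocyte differences were negative. Over the 4 tumors, summed stellate and fibroblast markers ranged from 96.9 to 351 RPKM (wild type 150 to 210), endothelial markers from 108 to 263 (127 to 193) and Kupffer cell and macrophage markers from 322 to 863 (329 to 870). Cholangiocyte markers summed to 80.4 to 214 RPKM in tumors and 85.8 to 107 in wild type, lymphocyte markers to 6.78 to 25.8 and 13.5 to 30.3, neutrophil markers to 4.99 to 39.7 and 6.53 to 13.9, and red blood cell markers to 116 to 449 and 148 to 247. In each of these lists the ranges of tumors and livers overlapped. Limma called Esm1 among the endothelial and Tspan8 among the cholangiocyte markers. It called no Kupffer cell, lymphocyte, neutrophil, stellate or red blood cell marker, nor did voom, while 2, 2, 0, 2 and 1 of them had an unadjusted limma p under 0.05. Over all 11351 genes tested, 995 positive and 1181 negative differences had such a p. Without tumor 3 it called 2 falls among the stellate cell and 1 among the Kupffer cell markers. Of 17 genes of fat, pancreas, muscle and gut, 5 (Retn, Prss1, Cpa1, Pnlip and Ctrb1) had no read in any of the 8 libraries. In such bulk samples, fewer cells of a type and less RNA per cell cannot be told apart. The part of these cells in the results below was not tested beyond the values given without tumor 3.

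The deposited transcript values of E2f7 and E2f8 did not separate the groups. E2f7 (mm9 chromosome 10, 110182520 to 110224439) had 6, 8, 13 and 8 reads in wild-type livers and 21, 18, 14 and 3 reads in tumors, or at most 0.259 RPKM. E2f8 (chromosome 7, 56121833 to 56136369) was at 4.30, 1.66, 2.26 and 2.57 RPKM in the livers and 1.66, 12.2, 3.68 and 5.23 RPKM in the tumors. The exact two-sided permutation test gave p = 0.543 for E2f7 and p = 0.286 for E2f8 with 4 against 4 libraries, where 0.0286 is the smallest p possible. Against the L03 livers alone p was 0.867 and 0.4 by the same exact test. A value summed over a whole transcript does not show whether an exon is missing, so the genotype labels could not be checked, and DKO is used here as the label.

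Of 11351 genes tested, 140 rose (1.23%) and 76 fell (0.67%) in the tumors. The groups did not overlap for 215 of these 216 genes, Hyi being the exception. Among all genes tested, 632 (5.57%) had every tumor above every wild-type liver and 717 (6.32%) had every tumor below. An unadjusted limma p under 0.05 was given to 995 positive and 1181 negative differences. These shares and counts over all 11351 genes are the background for the list counts given below. A gene low in liver could pass the filter of 0.5 RPKM in 4 libraries through the tumors alone. In lists of genes with low values this favours positive differences and tumors above livers. Within L03 limma called 23 rises (0.203%) and 2 falls (0.0176%), of which 22 rises and the 2 falls were also called over the 12 libraries. All 216 genes kept their direction against the L03 livers, with a median log2 difference of 1.16 for the rises (1.24 over 12 libraries) and -1.05 for the falls (-1.11 over 12 libraries).

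The called rises and falls lay in different parts of the expression range, which the method itself favours. On log2(RPKM + 1) a gene with a wild-type mean under 1 RPKM cannot fall by 1 log2 unit. Genes low in liver can pass the filter through the tumors alone. The shares over all genes tested were not counted, so the next counts only describe the calls. Of the 140 genes that rose, 54 had a wild-type mean under 1 RPKM and 9 had a tumor mean over 50 RPKM. Of the 76 that fell, 53 had a wild-type mean over 10 RPKM and 24 over 50 RPKM, and 13 had a tumor mean under 1 RPKM. Tumor 3 was the nearest of the tumors to wild type in most calls, being the highest tumor in 63 of the 76 falls and the lowest in 64 of the 140 rises. Over all 11351 genes tested it was the highest tumor for 4562 and the lowest for 558. Without tumor 3, limma called 175 rises and 238 falls, so that the number of falls changed more than that of rises. The counts dropped to 19 and 2 without wild-type liver 1, 58 and 25 without liver 2, and 15 and 1 without liver 4. They were 33 and 4 without tumor 1, 19 and 1 without tumor 2, and 145 and 125 without DKO liver 4. Whichever of the 12 libraries was left out, 15 rises and 1 fall were called, among them Lpl, Nid1, Tubb2a, Pygb, Prom2, Btg2, Mtmr11, Dusp5, Nope, Kif5c, Gdpd1, Slc9a7, Tnfsf13 and 5830417C01Rik, which rose. Every other called gene lost its call without at least 1 library.

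**Figure D1:**
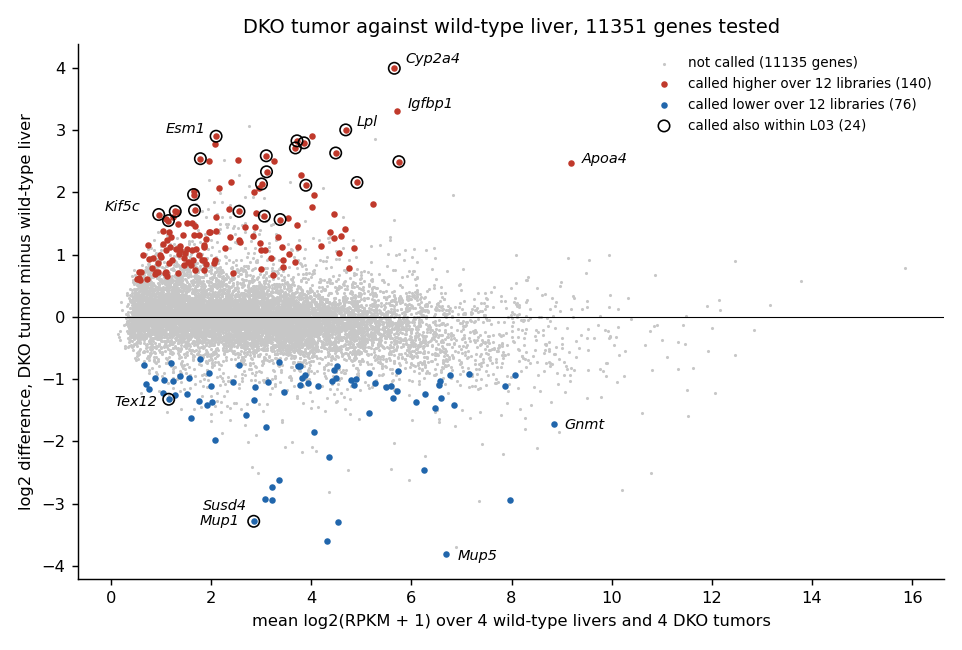
Each point is 1 of 11351 genes, with the mean log2(RPKM + 1) over the 8 libraries on the x axis and the log2 difference, DKO tumor minus wild-type liver, on the y axis. The 140 red points were called higher and the 76 blue points lower over 12 libraries, and black rings mark the 24 genes also called within L03, 22 of which lie above 0.

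Among the 24 genes called both over 12 libraries and within L03, 3 restrain cell division. Cdkn1a, which encodes the CDK inhibitor p21 (chromosome 17, 29227930 to 29237666), was at 1.75, 6.77, 3.04 and 1.52 RPKM in wild-type livers and 16.2, 19.4, 21.7 and 9.14 in tumors. It rose by 2.13 (SE 0.49, limma adjusted p = 0.0474, L03 difference 2.40). Cdkn2c, encoding the CDK4 and CDK6 inhibitor p18 (chromosome 4, 109333480 to 109337976), was at 3.17, 1.91, 2.59 and 1.65 RPKM in livers and 8.73, 10.2, 7.34 and 12.9 in tumors. The lowest tumor was above the highest liver for both inhibitors. Btg2, an antiproliferative gene known as a p53 target and as an early response gene (chromosome 1, 135971441 to 135975731), was at 2.11, 3.70, 4.23 and 1.87 RPKM in livers and 24.9, 18.2, 19.8 and 12.5 in tumors. Log2 differences were 1.69 (SE 0.35, limma adjusted p = 0.0319, L03 1.78) for Cdkn2c and 2.33 (SE 0.31, limma adjusted p = 0.00524, L03 2.32) for Btg2. Btg2 was called in all 12 fits that left out 1 library, Cdkn2c in 5 and Cdkn1a in 4.

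Genes of metabolism and nutrient handling made up a further group. Lpl, lipoprotein lipase, which releases fatty acids from circulating triglyceride and is low in adult hepatocytes (chromosome 8, 71404453 to 71430830), was at 5.63, 6.75, 12.6 and 8.90 RPKM in livers and 82.8, 102, 40.1 and 79.7 in tumors. Its L03 difference of 2.66 was below the 3.0 over 12 libraries, since both L03 livers were above both L02 livers (SE 0.31, limma adjusted p = 0.000985). Pygb, the brain form of glycogen phosphorylase, was at 1.47, 2.32, 3.75 and 2.89 RPKM in livers and 15.9, 28.7, 19.6 and 18.2 in tumors (log2 difference 2.59, SE 0.33, limma adjusted p = 0.00453, L03 2.29). The muscle, liver and brain phosphorylases do the same reaction, and the brain form is the one of fetal tissue. Cyp2a4, a steroid hydroxylase of female mouse liver (chromosome 7, 27092210 to 27100106), was at 7.81, 12.8, 15.3 and 12 RPKM in livers and 305, 174, 212 and 144 in tumors. This was the largest rise among genes passing the 5 RPKM rule for named genes (log2 difference 3.99, SE 0.65, limma adjusted p = 0.0181, L03 3.79), but Cyp2a4 is nearly identical to Cyp2a5 and the counting could have split reads between them. Slc39a4, a zinc importer, was at 7.93, 24.9, 14.1 and 10.9 RPKM in livers and 66.9, 80.2, 40.2 and 71.6 in tumors. Slc39a4 rose by 2.16 (SE 0.34, limma adjusted p = 0.0138), with an L03 difference of 2.25.

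Cdh1, Prom2, Nid1, Esm1 and Pls1 encode proteins of the cell surface, the matrix or microvilli. Cdh1, encoding E-cadherin of adherens junctions (chromosome 8, 109127267 to 109194145), was at 4.14, 3.33, 6.98 and 2.59 RPKM in livers and 35.0, 39.3, 29.1 and 26 in tumors (log2 difference 2.71, SE 0.44, limma adjusted p = 0.0178, L03 2.62). Prom2, a membrane protrusion protein related to prominin 1 (chromosome 2, 127352208 to 127367132), was at 0.265, 0.347, 0.641 and 0.505 RPKM in livers and 12.2, 7.91, 4.28 and 6.76 in tumors. Nid1, encoding the basement membrane linker nidogen 1 (chromosome 13, 13529957 to 13604528), was at 3.18, 5.46, 4.25 and 3.19 RPKM in livers and 63.1, 28.5, 22.9 and 32.4 in tumors. Prom2 rose from under 1 RPKM in every liver, and Nid1 was highest in tumor 1. Esm1, endocan, a proteoglycan of activated endothelium (chromosome 13, 113999866 to 114008311), was at 0.179, 0.520, 0.960 and 0.735 RPKM in livers and 11.7, 6.85, 10.2 and 15.9 in tumors. Pls1 (listed as AI427122), an actin-bundling protein of microvilli, was at 0.384, 0.411, 0.996 and 0.647 RPKM in livers and 3.93, 4.76, 6.41 and 6.07 in tumors. Log2 differences were 2.54 (SE 0.32) for Prom2, 2.83 (SE 0.37) for Nid1, 2.90 (SE 0.44) for Esm1 and 1.96 (SE 0.45) for Pls1. Their limma adjusted p-values were 0.00453, 0.00472, 0.0138 and 0.0474, and their L03 differences 2.41, 2.90, 2.67 and 1.78. Esm1 was the endothelial marker that was called, and the sum of the endothelial list, 127 to 193 RPKM in livers and 108 to 263 in tumors, overlapped between groups. Of the 23 endothelial markers, 5 had every tumor above every liver (all genes 5.57%) and none had every tumor below. An unadjusted limma p under 0.05 was given to 7 positive and 2 negative differences of that list.

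Of the cytoskeleton, a kinesin and a tubulin best known from neurons were among the 24. Kif5c, a kinesin motor of axonal transport (chromosome 2, 49474833 to 49630297), was at 0.0183, 0.0685, 0.234 and 0.0822 RPKM in livers and 2.98, 2.69, 1.75 and 2.43 in tumors. With a limma adjusted p of 0.000198 it had the smallest p of the genes named here (log2 difference 1.64, SE 0.14, L03 1.57). Tubb2a, a beta-tubulin (chromosome 13, 34166146 to 34169854), was at 6.48, 7.63, 9.23 and 9.04 RPKM in livers and 74.9, 85.6, 33.7 and 41.9 in tumors, with tumors 1 and 2 at the top. Tubb2a has a near-identical copy, Tubb2b, that was below the filter here (log2 difference 2.63, SE 0.29, limma adjusted p = 0.00122, L03 2.46). Nope, now Igdcc4, a cell surface protein known from fetal liver, was at 0.282, 0.465, 0.379 and 0.305 RPKM in livers and 2.66, 5.69, 3.05 and 2.74 in tumors. Nope rose by 1.69 (SE 0.22, limma adjusted p = 0.00453, L03 1.71).

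Signalling genes completed the rises called in both. Tgfbr2, the type II receptor of TGF-beta, was at 3.44, 7.59, 6.15 and 3.93 RPKM in livers and 15.4, 13.4, 19 and 20.8 in tumors. Tnfrsf12a, the receptor of the cytokine TWEAK, was at 2.87, 4.23, 4.21 and 3.95 RPKM in livers and 13.8, 12.1, 12.9 and 16.2 in tumors, and overlaps Hcfc1r1 on the opposite strand. Dusp5, a phosphatase that inactivates nuclear ERK, was at 0.759, 1.01, 0.510 and 0.791 RPKM in livers and 6.73, 5.11, 3.09 and 4.72 in tumors. The tumors lay close together for the 2 receptors and spread more widely for Dusp5. Log2 differences were 1.56 (SE 0.29, limma adjusted p = 0.0222, L03 1.59), 1.62 (SE 0.29, limma adjusted p = 0.0215, L03 1.53) and 1.71 (SE 0.23, limma adjusted p = 0.00453, L03 1.81) for Tgfbr2, Tnfrsf12a and Dusp5. Anxa5, the phosphatidylserine-binding annexin, was at 15.3, 21.2, 31.6 and 21.6 RPKM in livers and 126, 78.3, 159.9 and 164 in tumors (log2 difference 2.49, SE 0.55, limma adjusted p = 0.0416, L03 2.24). Ifi27l2b (listed as 1810023F06Rik) was at 1.37, 5.50, 10.2 and 4.31 RPKM in livers and 45.5, 32.9, 35.5 and 35.9 in tumors, and was the 1 gene called of 31 on the interferon response list. Neither voom nor limma without tumor 3 called a gene of that list. Ccdc120, of which no function is given here, was at 0.241, 0.322, 0.370 and 0.270 RPKM in livers and 3.15, 2.27, 2.88 and 2.94 in tumors. The tumors lay within a narrow range for both, and their log2 differences were 2.80 (SE 0.63, limma adjusted p = 0.0461, L03 2.31) and 1.55 (SE 0.29, limma adjusted p = 0.0224, L03 1.53).

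Mup1 and Tex12 were the falls called in both. Mup1, encoding a major urinary protein, a pheromone carrier secreted mainly by male liver (chromosome 4, 60732254 to 60736197), was at 28.9, 15.3, 19.2 and 25.3 RPKM in livers and 0.880, 0.765, 3.85 and 0.791 in tumors. It fell by 3.28 (SE 0.57, limma adjusted p = 0.0215, L03 difference -3.31), with tumor 3 above the others, but the Mup genes are near-identical copies and reads could have been split among them. Tex12, a part of the synaptonemal complex of meiotic chromosomes (chromosome 9, 50365252 to 50369372), was at 2.84, 2.15, 2.05 and 3.19 RPKM in livers and 0.305, 0.255, 0.567 and 0.539 in tumors. It fell by 1.32 (SE 0.25, limma adjusted p = 0.0257, L03 difference -1.34). Sycp3, another protein of the same complex, was also called, at 6.14, 4.6, 5.18 and 6.27 RPKM in livers and 1.12, 1.47, 2.31 and 1.31 in tumors. It fell by 1.37 (SE 0.32, limma adjusted p = 0.0461, L03 difference -1.41) and lies outside the rule for named genes, having been picked after its values were seen.

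**Figure D2:**
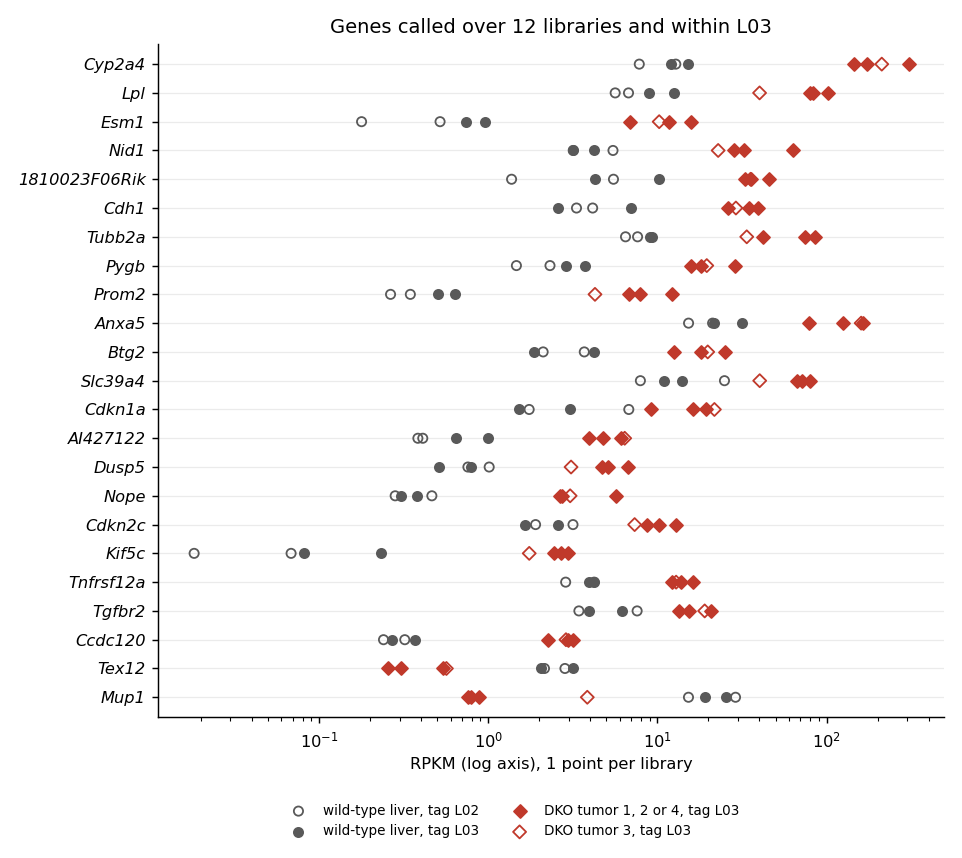
RPKM of 23 of the 24 genes called over 12 libraries and within L03, on a log axis with 1 point per library; circles are wild-type livers (open L02, filled L03) and diamonds are DKO tumors (open for tumor 3). No circle overlaps the diamonds of its gene, and for Mup1 the open diamond at 3.85 RPKM lies nearest to the livers, which start at 15.3 RPKM.

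The promoters of Tex12 and Sycp3 hold letters that match E2F sites and are shown for that reason. Letters searched were TTTCCCGC, TTTGGCGC and TTCCCGCC on both strands, of which the first and the last can overlap, in the RefSeq promoter table of build GRCm38.p6, which spans 250 bases before to 50 after each start. Each line gives bases 180 to 61 before the start, 5′ to 3′ along the gene, with the match in capitals, for Tex12 at chr9:50561329-50561448 on the minus strand and Sycp3 at chr10:88459407-88459526 on the plus strand. The match begins 146 bases before the start in Tex12 and 147 bases before it in Sycp3.
Tex12: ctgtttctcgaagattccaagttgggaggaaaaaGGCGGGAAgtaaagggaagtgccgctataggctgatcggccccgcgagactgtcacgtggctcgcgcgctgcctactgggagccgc
Sycp3: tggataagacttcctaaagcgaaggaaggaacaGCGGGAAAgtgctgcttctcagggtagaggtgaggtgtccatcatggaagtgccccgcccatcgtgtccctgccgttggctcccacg
Such letters stood in 5.54% of the 11594 promoters of the 9048 tested genes that matched the table. They stood in 6.25% of the 128 promoters of genes that rose (104 of 140 genes matched) and 6.67% of the 75 promoters of genes that fell (56 of 76 matched). Both shares lie near that of all promoters, and none of the 19 promoters of the genes that rose in both fits held the letters. Among the genes with the letters, Bcmo1, Dapk2, Etl4, Fgd1, Plscr1, 1700017B05Rik (listed as Sept14), Slc16a1 and Slc35c1 rose and 1810014F10Rik, Sycp3, Tex12 and Tmub1 fell. A match is a description of letters and not a bound site.

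The following rises were called over 12 libraries and not within L03. Igfbp1, a binding protein of insulin-like growth factors, was at 26.3, 20.1, 14.6 and 7.58 RPKM in livers and 85.1, 227, 101 and 365 in tumors, and its L03 difference of 3.83 exceeded the 3.30 over 12 libraries (SE 0.53, limma adjusted p = 0.0178). Apoa4, an apolipoprotein made in intestine and liver, was at 221, 248, 288 and 238 RPKM in livers and 3238, 1978, 922 and 597 in tumors. Apoa4 had narrow livers and a spread of tumors from 597 to 3238 RPKM (log2 difference 2.46, SE 0.48, limma adjusted p = 0.0264). Scd2, the desaturase of fetal rather than adult liver, was at 2.54, 4.71, 8.83 and 5.33 RPKM in livers and 27.1, 50.4, 15.4 and 164 in tumors (log2 difference 2.90, SE 0.57, limma adjusted p = 0.0296). Cpe, carboxypeptidase E of secretory granules, was at 2.87, 3.99, 3.50 and 2.08 RPKM in livers and 31.2, 38.1, 5.05 and 34.7 in tumors. Gldn, gliomedin, was at 0.323, 0.369, 1.79 and 0.348 RPKM in livers and 16.3, 17.5, 12.3 and 2.51 in tumors. Cpe was nearest to wild type in tumor 3 and Gldn in tumor 4. Log2 differences were 2.50 (SE 0.47, limma adjusted p = 0.0264) for Cpe and 2.77 (SE 0.57, limma adjusted p = 0.0319) for Gldn. Mtmr11, a member of the myotubularin family, was at 1.46, 1.11, 2.27 and 1.31 RPKM in livers and 11.1, 11.5, 5.74 and 14.8 in tumors. It rose by 2.17 (SE 0.31, limma adjusted p = 0.00694) and was called whichever library was left out. L03 differences were 2.38 for Apoa4, 2.50 for Scd2, 2.62 for Cpe, 2.51 for Gldn and 2.04 for Mtmr11.

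Markers of fetal liver and liver cancer rose in part. Of 21 tested (26 listed, 24 in the data), 4 rose, none fell, and the median log2 difference was 1.21 (L03 1.06) against -0.02 over all genes. None was called within L03. Tumors 1 to 4 were above all livers for 13, 13, 16 and 8 of the 21. These are 61.9%, 61.9%, 76.2% and 38.1%, against 10.7%, 23.5%, 37.7% and 35.6% of all genes, so tumor 4 lay near the share of all genes. Afp, alpha-fetoprotein, the serum protein of fetal liver, was at 1.74, 2.17, 0.928 and 1.01 RPKM in livers and 10.8, 13, 3.05 and 54.1 in tumors (log2 difference 2.52, SE 0.57, limma adjusted p = 0.0474). Afp was called in 2 of the 12 fits without 1 library, and tumor 3 came within 1 RPKM of the highest liver. Prom1, the progenitor cell antigen CD133, was at 0.513, 0.405, 0.987 and 0.709 RPKM in livers and 13.4, 7.16, 3.04 and 14.7 in tumors (log2 difference 2.50, SE 0.42, limma adjusted p = 0.0215). Tspan8, a tetraspanin of gut and bile duct epithelium, was at 2.21, 4.20, 11.6 and 6.55 RPKM in livers and 32.0, 51.7, 21.8 and 21.4 in tumors. Its L03 difference was 1.66, against 2.28 over 12 libraries (SE 0.39, limma adjusted p = 0.0215), since the L03 livers were the higher ones. Tff3 and Akr1b7 spread too widely to be called, Tff3 at 134, 262, 140.3 and 22.8 RPKM in tumors with livers at 7.53 to 28.9, and Akr1b7 at 5.78, 6.94, 2.13 and 99.1 with livers at 0.301 to 2.83. Gpc3, glypican 3, was above all livers in tumor 3, at 8.79 RPKM, and in tumor 2, at 1.65, against at most 1.14 in the livers.

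Major urinary protein genes were among the largest falls. Mup5 was at 683, 327, 190.3 and 541 RPKM in livers and 15.4, 23.1, 81.0 and 17.3 in tumors (log2 difference -3.81, SE 0.65, limma adjusted p = 0.0215, L03 -3.54). Mup4 and Mup6 (listed as LOC620807) fell by 3.30 and 3.59 (SE 0.57 and 0.62, limma adjusted p = 0.0215 for both). Mup3, the most abundant of the family, was at 4846, 3655, 3461 and 5019 RPKM in livers and 823, 756, 2506 and 184 in tumors, and was not called (limma adjusted p = 0.0941). Tumor 3 was the highest tumor for each of these 4 genes, and the likeness of Mup copies holds for all of them.

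Of the other large falls, Susd4, a regulator of complement, was at 29.8, 20.5, 17.9 and 21.9 RPKM in livers and 0.862, 0.580, 7.22 and 2.62 in tumors (log2 difference -2.92, SE 0.46, limma adjusted p = 0.0169). Mfsd2 (now Mfsd2a), a transporter of lysolipids, was at 14.3, 33.9, 38.3 and 20.002 RPKM in livers and 1.47, 1.99, 9.41 and 0.656 in tumors. Wfdc21 (listed as 1100001G20Rik), a small secreted protein, was at 1085, 615, 637 and 546 RPKM in livers and 216, 41.7, 152 and 46.8 in tumors. Mfsd2 and Wfdc21 both fell by 2.94 (SE 0.50 and 0.60, limma adjusted p = 0.0215 and 0.0319). Lrtm1, a leucine-rich repeat protein encoded inside Cacna2d3 on the opposite strand, was at 29.3, 27.7, 15.2 and 23.1 RPKM in livers and 0.747, 0.782, 7.04 and 6.04 in tumors. Ugt3a1, a sugar-conjugating enzyme, was at 51.0, 42.6, 35.4 and 47.4 RPKM in livers and 4.39, 5.86, 19.1 and 9.49 in tumors. Lrtm1 fell by 2.73 (SE 0.54, limma adjusted p = 0.0297) and Ugt3a1 by 2.25 (SE 0.37, limma adjusted p = 0.0178). Hectd2, a ubiquitin ligase, was at 12.8, 5.23, 2.68 and 14.2 RPKM in livers and between 0.880 and 1.44 in tumors, so that the spread was among the livers. Sugct (listed as 5033411D12Rik), a mitochondrial enzyme of glutarate metabolism, was at 11.4 to 19.7 RPKM in livers and 2.22 to 7.01 in tumors. These fell by 1.97 and 1.76 (SE 0.38 and 0.32, limma adjusted p = 0.0268 and 0.0215). L03 differences were -2.76 for Susd4, -3.10 for Mfsd2, -2.70 for Wfdc21 and -2.44 for Lrtm1. They were -2.16 for Ugt3a1, -1.81 for Hectd2 and -1.75 for Sugct, and none of these genes was called within L03.

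**Figure D3:**
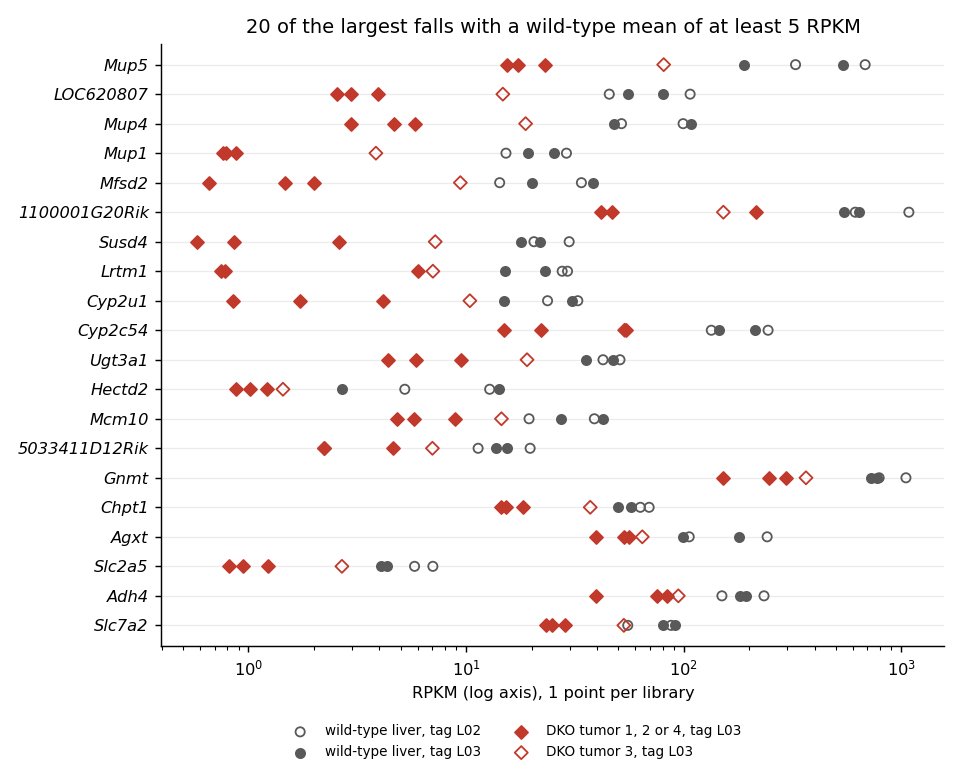
RPKM of 20 of the largest falls with a wild-type mean of at least 5 RPKM, on a log axis with 1 point per library; circles are wild-type livers (open L02, filled L03) and diamonds are DKO tumors (open for tumor 3). The open diamond of tumor 3 lies nearest to the circles for most genes, as for Mup5 at 81.0 RPKM against 15.4 to 23.1 RPKM in the other tumors.

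Genes of mitosis were higher in the tumors as a list, although 1 of them was called. Of 31 tested (36 listed, 35 in the data), all 31 had a positive difference and 20 had every tumor above every liver, against 5.57% of all genes. A gene low in liver could pass the filter of 0.5 RPKM in 4 libraries through the 4 tumors alone. These counts are therefore partly set by the filter, and how far was not tested. The median log2 difference was 0.70 (L03 0.70) and voom called 1. Limma gave an unadjusted p under 0.05 for 25 of them, all positive, against 995 positive differences among all 11351 genes. Kif2c, a microtubule-depolymerising kinesin of chromosome segregation (chromosome 4, 116832265 to 116855168), was at 0.0912, 0.142, 0.337 and 0.205 RPKM in livers and 0.731, 1.23, 0.790 and 0.630 in tumors. Kif2c rose by 0.62 (SE 0.14, limma adjusted p = 0.0462, L03 0.53) and was called in 2 of the 12 fits without 1 library. Prc1, a midzone protein of the spindle, was at 0.382, 0.476, 0.627 and 0.572 RPKM in livers and 2.15, 4.22, 2.13 and 1.58 in tumors (limma adjusted p = 0.0576). Top2a, the topoisomerase of dividing cells, was at 0.288, 1.09, 0.935 and 0.485 RPKM in livers and 2.34, 5.18, 2.28 and 1.29 in tumors (limma adjusted p = 0.0955). Ccna2, encoding cyclin A2, was at 1.29, 2.11, 1.62 and 1.17 RPKM in livers and 3.32, 9.72, 4.30 and 2.72 in tumors (limma adjusted p = 0.0961). Tumor 2 was highest and tumor 4 lowest in all 3, and no liver reached a tumor. Levels stayed low throughout, so the offset of 1 compresses these differences, and with an offset of 0.1 the list's median was 1.35.

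Genes of DNA replication differed less than those of mitosis and unequally among the tumors. Of 36 tested (38 listed, 37 in the data), none rose, Mcm10 fell, and the median log2 difference was 0.42 (L03 0.48). An unadjusted limma p under 0.05 was given to 4 positive differences and 1 negative one (all 11351 genes 995 and 1181), and voom called 0 rises and 1 fall. Tumor 2 was above all livers for 32 of the 36 (88.9%, all genes 23.5%) and tumor 3 for 21 (58.3%, all genes 37.7%). Tumor 1 was above them for 6 (16.7%, all genes 10.7%) and below them for 9 (25.0%, all genes 53.9%). Tumor 4 was above them for 3 (8.33%, all genes 35.6%). Rrm2, a subunit of ribonucleotide reductase, was at 2.43, 5.62, 4.42 and 2.69 RPKM in livers and 12, 31.1, 13.6 and 5.45 in tumors, so that tumor 4 lay inside the range of the livers (limma adjusted p = 0.139). Mcm10, a factor that activates the replicative helicase (chromosome 2, 4911793 to 4933780), was at 38.9, 19.5, 27.3 and 42.7 RPKM in livers and 4.83, 8.88, 14.5 and 5.75 in tumors. It fell by 1.85 (SE 0.38, limma adjusted p = 0.0319, L03 -2.0), and was the most abundant gene of the list per length in every wild-type liver. E2f1, an activating E2F, was at 0.560, 2.95, 1.5 and 1.63 RPKM in livers and 3.16, 5.73, 3.55 and 3.08 in tumors without overlap (limma adjusted p = 0.169). Rbl2, the pocket protein p130 of resting cells, was at 6.91, 7.89, 7.86 and 6.92 RPKM in livers and 2.77, 3.58, 4.78 and 4.94 in tumors (limma adjusted p = 0.0641). None of the 11 E2F and RB family genes was called by limma or voom, and 4 had an unadjusted limma p under 0.05.

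Promoters of these lists differ in the letters they hold. The CHR element, searched as TTTGAA on both strands after the values had been seen, stood in 78.6% of the 28 promoters of mitotic genes (26 of 31 genes matched), against 12.2% of all promoters, 12.5% of those of genes that rose and 13.9% of the 36 promoters of replication genes. E2F letters stood in 44.4% of the replication promoters and in none of the mitotic ones. In 18 of the 20 mitotic genes with CHR letters a match lay within 50 bases of the start. The 5 promoters below are shown for the position of these letters, in capitals, in genes of the mitosis list. Each line gives bases 120 to 1 before the start, 5′ to 3′ along the gene, from RefSeq on GRCm38.p6. They lie at chr4:117178773-117178892 (Kif2c, minus strand), chr10:69352913-69353032 (Cdc2a, now Cdk1, minus), chr4:118437344-118437463 (Cdc20, minus), chr11:99024190-99024309 (Top2a, minus) and chr2:164769809-164769928 (Ube2c, plus).
Kif2c: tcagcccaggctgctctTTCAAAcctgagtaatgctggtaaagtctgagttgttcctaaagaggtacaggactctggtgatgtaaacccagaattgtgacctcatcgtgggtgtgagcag
Cdc2a: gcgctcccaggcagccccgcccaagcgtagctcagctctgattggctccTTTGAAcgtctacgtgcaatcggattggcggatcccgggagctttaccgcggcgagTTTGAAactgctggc
Cdc20: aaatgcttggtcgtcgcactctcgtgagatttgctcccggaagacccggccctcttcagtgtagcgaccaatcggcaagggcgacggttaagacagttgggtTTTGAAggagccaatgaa
Top2a: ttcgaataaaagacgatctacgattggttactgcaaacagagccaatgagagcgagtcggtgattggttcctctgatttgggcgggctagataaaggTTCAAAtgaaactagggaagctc
Ube2c: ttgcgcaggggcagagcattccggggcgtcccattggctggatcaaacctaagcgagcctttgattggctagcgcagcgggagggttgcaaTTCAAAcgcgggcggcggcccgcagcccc
The letters begin 103 bases before the start in Kif2c, 71 and 15 before it in Cdc2a, 18 in Cdc20, 23 in Top2a and 29 in Ube2c. Cdc2a, the mitotic kinase, was at 0.92, 2.68, 1.59 and 1.08 RPKM in livers and 3.35, 7.32, 4.82 and 2.02 in tumors. Tumor 4 was inside the range of the livers, and Cdc2a was not called (limma adjusted p = 0.183).

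Cell cycle inhibitors and cyclins did not move as a list. Of 14 G1 cyclins, CDKs and CDK inhibitors tested, Cdkn1a and Cdkn2c rose, none fell, and the median log2 difference was 0.20 (L03 0.14). Limma called 1 of the 14 without tumor 3. Ccnd1, cyclin D1, was at 14.4, 48.2, 39.8 and 29.2 RPKM in livers and 16.6, 43.9, 52.3 and 49.4 in tumors. Cdkn2a, encoding p16 and p19ARF, overlapped between the groups, at 4.08 to 6.61 RPKM in livers and 3.98 to 7.83 in tumors. The counting does not separate the Cdkn2a transcripts. Of 22 p53 targets tested, Cdkn1a, Btg2 and Tnfrsf10b rose, none fell, and the median was 0.09 (L03 0.08). Limma called 2 of the 22 without tumor 3. No negative difference of these lists had an unadjusted limma p under 0.05. Tnfrsf10b, a death receptor of TRAIL, was at 0.0802, 0.525, 0.431 and 0.203 RPKM in livers and 1.14, 1.94, 1.16 and 1.81 in tumors (log2 difference 0.94, SE 0.22, limma adjusted p = 0.0471). Mdm2, the p53-induced ubiquitin ligase, was at 7.01 to 8.73 RPKM in livers and 6.44 to 8.83 in tumors.

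Among genes induced by ERK and in immediate early responses, some members rose. Of 14 ERK pathway targets tested (20 listed), Dusp5 and Dusp6 rose and none fell (median 0.31, L03 0.30). Dusp6, a phosphatase of cytoplasmic ERK, was at 6.64, 12.5, 16.2 and 15.0 RPKM in livers and 22.0, 38.6, 30.6 and 41.2 in tumors, and its L03 difference was 1.0 against 1.36 over 12 libraries (SE 0.29, limma adjusted p = 0.0327). Spry2 and Spry4, inhibitors in the same pathway, overlapped between groups, Spry4 at 1.04 to 3.24 RPKM in livers and 1.36 to 2.85 in tumors. Of 20 immediate early genes tested (25 listed), Fos, Atf3, Ier5 and Btg2 rose, and the median was 0.36 (L03 0.45). On this list 8 had every tumor above every liver, against 5.57% of all genes. Fos, an AP-1 subunit, was at 0.299, 0.298, 0.442 and 0.604 RPKM in livers and 2.01, 1.43, 2.31 and 1.56 in tumors (log2 difference 1.0, SE 0.19, limma adjusted p = 0.0257). Atf3, a stress-induced transcription factor, was at 0.507, 1.19, 2.55 and 0.960 RPKM in livers and 3.24, 9.64, 7.19 and 18.2 in tumors (log2 difference 2.07, SE 0.45, limma adjusted p = 0.0382). No fall was called by limma or voom in these lists, with an unadjusted limma p under 0.05 for 1 negative difference in each.

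In the TGF-beta and activin pathway (19 tested, 21 listed) 3 genes rose, Tgfbr2 and Fst among them, and no gene was called lower, while 12 of 19 differences were negative (median -0.32, L03 -0.45). An unadjusted limma p under 0.05 was given to 5 of the negative differences, and voom called no fall. Without tumor 3, limma called 3 rises and 2 falls on this list. Fst, the activin antagonist follistatin, was at 0.857, 1.60, 2.34 and 1.26 RPKM in livers and 3.97, 10.9, 5.69 and 6.83 in tumors (log2 difference 1.60, SE 0.35, limma adjusted p = 0.0382). Hamp, the iron hormone hepcidin, a target of BMP signals, was at 3411, 2093, 2859 and 4522 RPKM in livers and 158, 859, 2007 and 153 in tumors without overlap (limma adjusted p = 0.0944). Of 22 receptor tyrosine kinases and ligands tested, Efna1, an ephrin ligand, rose, at 9.01, 17.1, 19.9 and 14.6 RPKM in livers and 44.6, 34.7, 39.2 and 44.0 in tumors (log2 difference 1.41, SE 0.27, limma adjusted p = 0.0261, L03 1.19).

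Junction, matrix and tubulin lists each held a few called genes. Of 30 junction and keratin genes tested, 2 rose, Cdh1 among them, none fell, and the median was 0.34 (L03 0.21). Of 32 basement membrane and matrix genes tested, Nid1, Lama5 and Spon2 rose and none fell, with a median of 0.30 (L03 0.42). Lama5, a laminin chain, stayed near 1 RPKM or below, at 0.209, 0.322, 0.222 and 0.160 in livers and 1.05, 0.470, 0.83 and 1.08 in tumors. Spon2, a matrix protein, was at 4.6, 2.26, 2.63 and 2.39 RPKM in livers and 12.9, 15.8, 7.51 and 5.04 in tumors. Lama5 rose by 0.59 (SE 0.14, limma adjusted p = 0.0474) and Spon2 by 1.44 (SE 0.34, limma adjusted p = 0.0488). Tumor 3 was above all livers for 22 of the 32 matrix genes (68.8%, all genes 37.7%) and tumor 1 for 11 (34.4%, all genes 10.7%). Tumor 2 was above them for 10 of the 32 (all genes 23.5%) and tumor 4 for 16 (all genes 35.6%). For the 17 stellate cell and fibroblast markers these counts were 14 in tumor 3 and 0 to 2 in the other tumors. Of 22 tubulin, kinesin and neuronal cytoskeleton genes tested (36 listed), Tubb2a, Tubb6 and Kif5c rose and none fell (median 0.46, L03 0.45). On this list 10 had every tumor above every liver, against 5.57% of all genes. Tubb6, a widely expressed beta-tubulin, was at 3.95, 3.85, 5.55 and 4.91 RPKM in livers and 10.1, 9.80, 9.22 and 13.8 in tumors (log2 difference 1.07, SE 0.23, limma adjusted p = 0.0319).

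Amino acid metabolism was lower across the list. All 44 genes of the urea cycle and amino acid catabolism had a negative difference, 11 had every tumor below every liver (all genes 6.32%), and 3 fell, with a median log2 difference of -0.81 (L03 -0.81). Gnmt, which consumes S-adenosylmethionine in glycine methylation (chromosome 17, 46862612 to 46866113), was at 1052, 792, 726 and 776 RPKM in livers and 247, 151, 365 and 295 in tumors. Agxt, which detoxifies glyoxylate, was at 242, 106, 99.3 and 179 RPKM in livers and 56.0, 53.4, 64.6 and 39.6 in tumors. Slc25a15, the mitochondrial ornithine carrier of the urea cycle, was at 139, 154, 162 and 146 RPKM in livers and 54.2, 68.3, 118 and 86.7 in tumors. They fell by 1.71 (SE 0.31, limma adjusted p = 0.0215), 1.46 (SE 0.30, limma adjusted p = 0.0297) and 0.93 (SE 0.22, limma adjusted p = 0.0474). The urea cycle enzymes were not called, Ass1 at 357, 404, 291 and 433 RPKM in livers and 209, 146, 313 and 68.1 in tumors (limma adjusted p = 0.104) and Otc at 299, 221, 265 and 307 and 182, 142, 228 and 70.5 (limma adjusted p = 0.121). In both, tumor 3 lay inside the range of the livers. Without tumor 3, limma called 13 falls among the 44 genes, with a median of -0.94.

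Other mitochondrial and detoxifying functions were mostly lower with few calls. All 36 nuclear-encoded respiratory chain genes had a negative difference and 10 had every tumor below every liver, against 6.32% of all genes (median -0.49, L03 -0.42). Limma and voom called none of them, and 15 had an unadjusted limma p under 0.05. Limma called 2 of them without tumor 3. Ndufb5, a complex I subunit, was at 85.7, 65.3, 65.2 and 79.3 RPKM in livers and 31.9, 38.2, 47.7 and 42.6 in tumors (limma adjusted p = 0.075). Of 29 genes of fatty acid oxidation and ketogenesis, 25 were negative and 8 had every tumor below every liver, against 6.32% of all genes (median -0.45, L03 -0.39). Limma and voom called none of the 29, with an unadjusted limma p under 0.05 for 10 negative and 1 positive. Of 36 cytochrome P450 and other phase I genes tested, Cyp2c54 and Cyp2j5 fell and Cyp39a1 rose (median -0.48, L03 -0.46). Of their differences 8 were positive and 28 negative, and tumor 4 was above all livers for 13 and below them for 14. Cyp39a1, an oxysterol hydroxylase of bile acid synthesis, was at 11.7, 4.40, 6.97 and 5.91 RPKM in livers and 23.9, 17.7, 14.2 and 31.1 in tumors (log2 difference 1.48, SE 0.28, limma adjusted p = 0.0261). Cyp2c54 was at 245, 134, 145 and 213 RPKM in livers and 14.9, 22.2, 53.6 and 54.5 in tumors (log2 difference -2.46, SE 0.52, limma adjusted p = 0.0353), and it belongs to a family of close copies. Of 34 conjugation enzymes, Ugt3a1 and Sult1b1 fell and none rose (median -0.39, L03 -0.37). Here 8 differences were positive and 26 negative, and tumor 4 was above all livers for 11 and below them for 12. Of 29 complement genes tested, Susd4 fell, none rose and 25 were negative (median -0.45, L03 -0.44). Without tumor 3, 4 conjugation enzymes and 3 complement genes fell.

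Other metabolic enzymes and carriers fell on their own. Adh4, an alcohol dehydrogenase that also oxidises retinol, was at 234, 150.0, 182 and 194 RPKM in livers and 39.6, 75.2, 94.6 and 83.8 in tumors. Chpt1, the last enzyme of phosphatidylcholine synthesis from choline, was at 63.2, 69.4, 49.7 and 57.2 RPKM in livers and 15.3, 18.2, 37.2 and 14.5 in tumors. Slc2a5, the fructose transporter, was at 7.04, 5.80, 4.08 and 4.31 RPKM in livers and 1.23, 0.814, 2.69 and 0.946 in tumors. The groups did not overlap in any of the 3, and they fell by 1.41 (SE 0.33, limma adjusted p = 0.0486), 1.54 (SE 0.35, limma adjusted p = 0.0461) and 1.42 (SE 0.26, limma adjusted p = 0.0215). Of 26 amino acid and cation transporters tested, Slc1a4, Slc16a1 and Slc39a4 rose and Slc7a2 fell, with 3 rises and 3 falls without tumor 3. Slc7a2, the cationic amino acid carrier of liver, was at 55.4, 87.6, 80.4 and 91.5 RPKM in livers and 28.4, 24.9, 53.1 and 23.2 in tumors. Slc16a1, the lactate carrier MCT1, was at 18.4, 11.9, 16 and 16.3 RPKM in livers and 32.5, 47.2, 31.8 and 23.4 in tumors. Slc1a4, a carrier of neutral amino acids, was at 1.62, 1.86, 1.96 and 1.80 RPKM in livers and 8.80, 10.1, 3.33 and 15.0 in tumors. Log2 differences were -1.31 (SE 0.30), 1.03 (SE 0.23) and 1.73 (SE 0.30), with limma adjusted p-values of 0.0432, 0.0353 and 0.0215. Of 34 genes of lipid uptake, droplets and lipases tested, Lpl rose and Mfsd2 fell. Cd36, a fatty acid receptor, was at 5.40, 11.1, 9.73 and 7.45 RPKM in livers and 36.5, 15.5, 38.9 and 86.9 in tumors, and Fabp4, a fatty acid carrier of fat cells and endothelium, at 3.78 to 5.70 and 12 to 99.3. Neither overlapped and neither was called (limma adjusted p = 0.0673 and 0.0769).

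Genes known to differ between male and female mouse liver were called in part. Of 22 male-biased genes tested, Mup1, Mup4, Mup5, Susd4 and Cyp2u1 fell and none rose (unadjusted limma p under 0.05 for 0 positive and 13 negative differences). On this list 12 had every tumor below every liver (all genes 6.32%), and the median was -1.93 (L03 -2.18). Without tumor 3, 8 fell. Cyp2u1, a fatty acid hydroxylase, was at 23.7, 32.6, 15.0 and 30.6 RPKM in livers and 1.73, 4.17, 10.4 and 0.846 in tumors (log2 difference -2.62, SE 0.50, limma adjusted p = 0.0269). Of 21 female-biased genes tested, Cyp2a4 and Prom1 rose, none fell (0 negative differences with an unadjusted limma p under 0.05), and the median was 1.08 (L03 0.94). Over the whole list of 21, tumors 1 to 4 were above all livers for 9, 7, 11 and 16 genes. These are 42.9%, 33.3%, 52.4% and 76.2%, against 10.7%, 23.5%, 37.7% and 35.6% of all genes. Sult3a1, a sulfotransferase of female liver, was at 3.79, 3.66, 6.14 and 435 RPKM in tumors and 1.51 to 7.82 in livers. The sex of the animals is not in the labels.

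The tumors also differed among themselves, and this is given as a description of 4 libraries without a test. Over all genes tested, tumor 1 was below all 4 livers for 53.9% and above them for 10.7%, tumor 2 for 32.6% and 23.5%, tumor 3 for 14.5% and 37.7%, and tumor 4 for 20.2% and 35.6%. RPKM share out the reads of a library, and median-of-ratios size factors on the RPKM were 0.762 for tumor 1, 0.942 for tumor 2, 1.12 for tumor 3 and 1.08 for tumor 4, against 0.939 to 1.05 for the livers. Tumor 1 also had the highest Alb, at 109387 RPKM. The mitosis list was above the livers in 28, 31, 30 and 23 of 31 genes in tumors 1 to 4. Urea cycle and amino acid genes were below the livers in 39, 40, 17 and 33 of 44, and respiratory chain genes in 35, 26, 13 and 23 of 36.

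**Figure D4:**
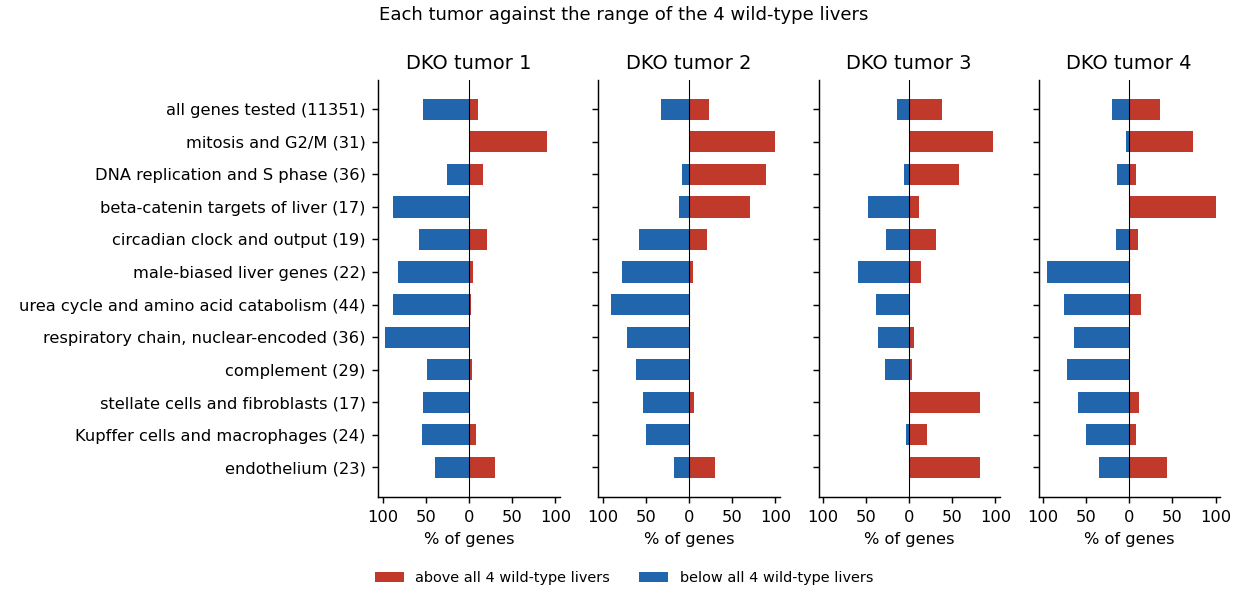
For each tumor, the bars give the percent of genes of a list (number tested in parentheses) above all 4 wild-type livers (red, to the right) or below them (blue, to the left). The beta-catenin list has 15 of 17 genes below the livers in tumor 1 (all genes 53.9%) and 17 of 17 above them in tumor 4 (all genes 35.6%). Stellate cell and fibroblast markers are above the livers in 14 of 17 only in tumor 3 (all genes 37.7%).

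Beta-catenin targets of the liver separated the tumors. Beta-catenin is the effector of WNT signals, which in normal liver act around the central vein, and it is often mutated in hepatocyte tumors. Of the 17 targets tested (18 listed), tumor 2 was above all livers for 12 (70.6%, all genes 23.5%) and tumor 4 for 17 (all genes 35.6%). Tumor 3 was above them for 2 (11.8%, all genes 37.7%) and tumor 1 for none (all genes 10.7%). Tumor 1 was below them for 15 (88.2%, all genes 53.9%). Glul, glutamine synthetase of the hepatocytes next to the central vein, was at 235, 144, 218 and 179 RPKM in livers and 53.2, 942, 167 and 2502 in tumors. Axin2, a feedback inhibitor of WNT signals, was at 2.18, 1.01, 2.43 and 1.55 RPKM in livers and 0.530, 10.3, 1.59 and 10.6 in tumors. Lgr5, a receptor of R-spondins, was at 1.30, 0.481, 0.625 and 0.641 RPKM in livers and 0.133, 4.28, 0.549 and 5.14 in tumors. All 3 were above the livers in tumors 2 and 4 and below them in tumor 1. Rhbg, an ammonium transporter, was at 2.69, 40.8, 3.88 and 80.8 RPKM in tumors with livers at 3.75 to 6.07, and Tbx3, a transcription factor, at 0.839, 6.79, 1.78 and 18.8 with livers at 1.84 to 3.51. Oat and Cyp2e1 set tumors 2 and 4 apart from each other. Oat, ornithine aminotransferase, was at 48.5, 127, 206 and 3056 RPKM in tumors and 331 to 501 in livers, and Cyp2e1 was at 248, 2878, 1716 and 6821 with livers at 4096 to 6677. As a group the tumors showed no called target by limma or voom, with an unadjusted limma p under 0.05 for 1 of 17 (median 0.59, L03 0.37).

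**Figure D5:**
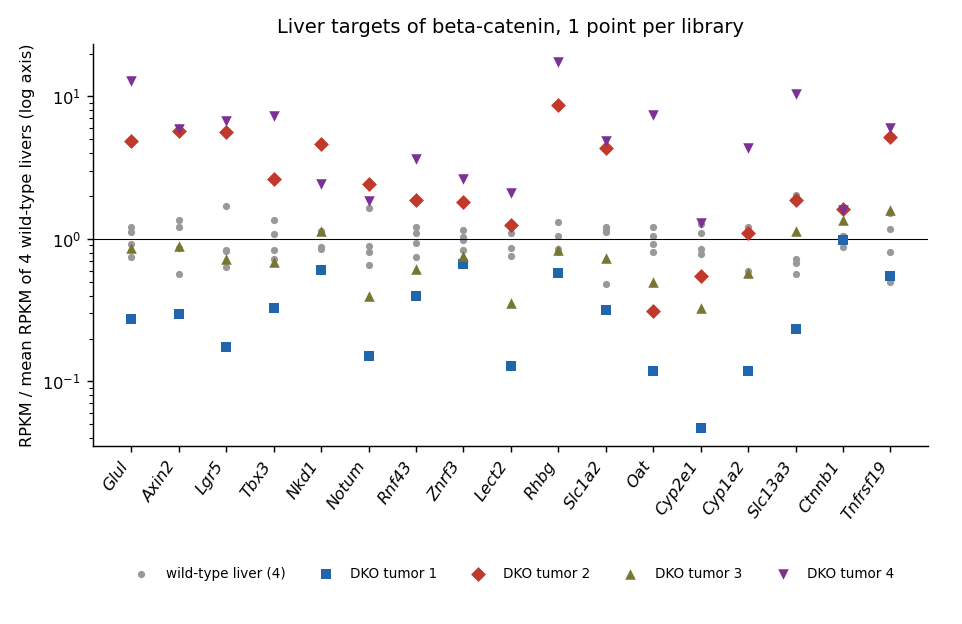
RPKM of each beta-catenin target divided by the mean of the 4 wild-type livers, on a log axis, with 1 point per library (grey dots livers, coloured symbols tumors). Tumor 4 lies above the livers for all 17 genes and tumor 1 below them for 15, as for Glul at 2502 and 53.2 RPKM against 144 to 235 RPKM in the livers. Over all genes tested, tumor 4 was above the livers for 35.6% and tumor 1 below them for 53.9%.

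Tumor 4 was furthest from the livers for several genes of hepatocytes around the portal vein, which were chosen here after their values were seen. Arg1, arginase, was at 1021, 1005, 1288 and 1267 RPKM in livers and 953, 534, 1134 and 78.5 in tumors. Gls2, liver glutaminase, was at 133, 179.8, 124 and 175 RPKM in livers and 87.5, 75.2, 142 and 6.90 in tumors, and overlaps Spryd4 on the opposite strand. Cyp2f2, a P450 of periportal hepatocytes, was at 576, 977, 496 and 868 RPKM in livers and 976, 233, 1096 and 48.1 in tumors. Tumor 4 was the lowest in each, and tumor 2 the next lowest. Tumor 1 stood alone in Cyp17a1, a steroid hydroxylase, with 205 RPKM against 2.28 to 4.6 in the other tumors and 1.56 to 3.29 in livers, and in Gstp2, a glutathione transferase, with 21.8 against 0.628 to 1.68 and 0.783 to 2.08. Cyp7a1, the rate-limiting enzyme of bile acid synthesis, was at 7.83, 78.3, 41.2 and 194 RPKM in tumors and 82.0 to 153 in livers. Of 6144 genes whose livers lay within 1 log2 unit and whose highest tumor reached 5 RPKM, 63 had a range over 3 log2 units among tumors. Over all genes the median range was 0.65 log2 units among tumors and 0.485 among livers.

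Genes of the circadian clock differed among tumors as well. Arntl, encoding the clock activator BMAL1, was at 1.60, 0.833, 0.840 and 0.484 RPKM in livers and 9.24, 10.9, 2.26 and 1.10 in tumors, and overlaps A630005I04Rik. Dbp, a clock output factor, was at 68.0, 40.7, 48.2 and 110.0 RPKM in livers and 3.51, 4.85, 15.1 and 38.6 in tumors, and Nr1d1, the repressor REV-ERB alpha, at 9.48 to 51.3 and 2.84, 1.38, 5.16 and 14.1. Tumors 1 and 2 had the highest Arntl and lowest Dbp. None of the 19 clock genes tested was called by limma or voom, with an unadjusted limma p under 0.05 for 3 positive and 9 negative differences. The hour of tissue collection is not in the labels.

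Igf2, a fetal growth factor, followed the tag among the wild-type livers. It was at 7.11 and 12.3 RPKM in the 2 L02 livers, at 0.178 and 0.149 in the 2 L03 livers and at 0.106, 1.13, 0.785 and 0.0564 in the tumors. The difference was -1.26 over 12 libraries and 0.32 within L03, and Igf2 was not called in either.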

How the data were processed

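Polyadenylated RNA of 12 mouse samples was read on a SOLiD instrument, per the labels' protocols. The authors deposited 1 RPKM value per transcript and library for 21247 transcripts with symbols, exon lengths and mm9 coordinates, whose base is not stated. BWA and mm9 are named without versions in the submitters' processing notes, and the counting and its use of strand are not given in the sources used here. RPKM times exon length gave whole reads within 0.05 for over 99.9% of values in each library, from which depth was recovered; intervals from depth would cover counting error only, since reads carry no molecular identifiers.

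For each of 19012 symbols the transcript with the longest exons was kept (1520 had several). Genes that reached 0.5 RPKM in 4 or more of the 12 libraries were fitted with limma 3.58.1 (R 4.3.3, intensity trend, robust shrinkage with statmod 1.5.0) on log2(RPKM + 1), with a mean per group over 12 libraries and the contrast DKO tumor minus wild-type liver. Tests were two-sided, with Benjamini-Hochberg adjustment over all 11351 genes at 0.05. The same model was fitted to the 6 L03 libraries. E2f7 and E2f8 were compared with exact permutation tests. The scripts were tested on simulated data.

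Named genes are E2f7 and E2f8, genes called in both fits, and per list up to 4 called members. They also include the 20 largest rises and falls without overlap and with a higher mean of at least 5 RPKM. Lists without a called gene added no gene, and any others were picked after their values were seen. Some genes that the rule names are not reported here. The 47 gene lists (1203 entries, 1187 in the data), the comparison and these rules were chosen with earlier results of these data known. Promoters were taken from RefSeq (GRCm38.p6), whose coordinates are not those of mm9. Python 3.11.15 with numpy 2.4.6, pandas 2.3.3, scipy 1.17.1 and matplotlib 3.10.9 was used. Alternatives changed the offset, filter, scaling, transcript, shrinkage, libraries and model, including voom on the recovered reads and, added after seeing the data, the animal as a random effect.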

Additional observations from a re-analysis of the deposited data

Results flagged for a closer look

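Among the named genes, 9 had 1 library apart from the other 3 of its group by Dixon's criterion for 4 values, which chance meets in about 1 in 20 groups. Both groups of 68 named genes were screened, so that several such cases would arise by chance alone. Tumor 3 was the library apart in 5 of them, on the side of wild type each time. Mup1 was at 3.852 RPKM there (other tumors 0.7652 to 0.8799), Mup5 at 81.01 (15.38 to 23.11) and Mup6, listed as LOC620807, at 14.76 (2.553 to 3.937). Mfsd2 was at 9.415 RPKM (0.6555 to 1.994) and Chpt1 at 37.23 (14.53 to 18.19). All 5 genes fell, and tumor 3 remained below the 4 livers in each.

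In the other 4 genes a different library stood apart. Nope was at 5.689 RPKM in tumor 2 (other tumors 2.663 to 3.05). Gldn was at 1.791 RPKM in wild-type liver 3 (other livers 0.3233 to 0.3694). Wfdc21, listed as 1100001G20Rik, was at 1085 RPKM in wild-type liver 1 (545.5 to 637.1), and Spon2 was at 4.6 RPKM there (2.258 to 2.626).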

How the results depend on the processing

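All 216 called genes kept their direction in every alternative fit (205 of them passed the filter at 1 RPKM), but the number of calls moved. Rises and falls (140 and 76 over 12 libraries) were 87 and 25 with no filter, 276 and 202 with quantile normalization, 347 and 251 with median-of-ratios scaling, and 168 and 135 with the 8 libraries alone. Limma called 23 and 2 within L03 and 3 and 0 with the tag as a covariate, where 544 and 595 genes had an unadjusted p under 0.05 and the log2 differences are those within L03. Voom on the recovered reads over 12 libraries without the covariate called 106 and 85. Without DKO animals 1 and 2 the counts were 10 and 0, with 1244 and 343 at an unadjusted limma p under 0.05, and the median of all genes shifted to 0.115. Leaving out 1 library gave 15 to 196 rises and 1 to 238 falls, with 125 falls without DKO liver 4. An offset of 0.1, a filter at 1 RPKM, shrinkage that was not robust and another transcript per gene gave 131 to 153 rises and 77 to 85 falls. With a replicate block over the 8 tumor and wild-type libraries the counts were 92 and 36, 84 of them among the 216, but same-numbered tumors and wild-type livers share only a number (correlation of deviations 0.0246, -0.101, 0.0243 and 0.047). DKO tumors and DKO livers do share animals, and a fit over 12 libraries with the animal as a random effect, chosen after seeing the data, called 133 and 73, 200 of them among the 216 (correlation within animals 0.149). Adh4, Tnfrsf10b and Slc25a15 lost their calls there.

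Of the named genes' values under alternatives, 1187 stayed past the threshold and 579 did not, with none reversed. Of the list medians, 1144 moved by less than the spread and 78 by more, the sterol synthesis median among the larger shifts between fits (0.41 over 12 libraries, 0.03 within L03). The causes were not tested. Depth limits genes under about 1 RPKM, as many mitotic genes were, and 4 tumors limit the rest.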

Other observations

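Genes of glycolysis, gluconeogenesis and glycogen were of either sign. Of 39 tested, limma and voom called none (unadjusted limma p under 0.05 for 3 positive and 5 negative, all 11351 genes 995 and 1181). Of the differences 21 were positive and 18 negative, and the median was 0.09 (L03 0.08). Without tumor 3, limma called 3 falls on this list. Heat shock genes (14 tested, median 0.01) and NRF2 targets (15 tested, median -0.02) lay as close to 0. Stress genes of unfolded protein and amino acid shortage were positive in 22 of 26 (median 0.27, L03 0.19), and limma and voom called none of them, with an unadjusted limma p under 0.05 for 6. Psat1, an enzyme of serine synthesis, was at 1.24, 2.31, 2.29 and 1.12 RPKM in livers and 6.56, 4.25, 2.89 and 3.59 in tumors without overlap (limma adjusted p = 0.0624). Without tumor 3, limma called 3 rises on that list.

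Transcription factors of hepatocytes were negative in 16 of 23, with a median of -0.35 (L03 -0.29). Limma and voom called none, and 9 negative and 1 positive differences had an unadjusted limma p under 0.05. Foxa2, Cebpa, Onecut1, Nr1h4, Nr5a2 and Nr1h3 had every tumor below every liver, which held for 6.32% of all genes. Nr1h4, the bile acid receptor FXR, was at 72.7, 60.5, 57.6 and 74.5 RPKM in livers and 29.6, 31.4, 53.6 and 29.9 in tumors (limma adjusted p = 0.0673). Secreted hepatocyte proteins were split, 14 of 35 positive and 21 negative (median -0.15, L03 -0.20), and limma and voom called none. An unadjusted limma p under 0.05 was given to 2 positive and 5 negative (all 11351 genes 995 and 1181).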
